A study of Mus musculus with 6 samples.

Results

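The cytosolic ribosomal protein genes are the nuclear genes that encode the protein parts of the ribosome outside the mitochondrion. The rule that chose them uses names and no measured value, though earlier results of these data were known when they were chosen. The rule took protein-coding genes on chromosomes 1 to 19 or X, leaving out pseudogenes. Their symbol is Rpl, Rplp or Rps and a number, with nothing after it but an optional a, x, l or l1. The rule found 81 genes, 51 of the large (60S) and 30 of the small (40S) subunit, among the 43629 genes of the count table. It leaves out ribosomal proteins with other kinds of name (among them Rpsa, Fau, Rack1, Rps3a1 and Rpl36al), which are given separately.

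Expression was measured in tumour-infiltrating T cells of C57BL/6 mice that carried subcutaneous B16-OVA tumours, a mouse melanoma line that expresses ovalbumin, harvested on day 14. Tumours were pooled, cells positive for TCRB and CD3 (CD8+ in the design text) were separated by how much of the lectin L-Pha they bound, and 3 libraries were made from L-Pha low and 3 from L-Pha high cells. This lectin recognises branched N-glycans made with the enzyme Mgat5. Whether replicate libraries stem from different animals or pools is not stated in the labels, so the p-values reflect only how these libraries vary, and that spread may be technical. Each library was made with a 3′ mRNA kit that starts each read near the poly(A) tail, and counts are therefore not divided by transcript length.

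A ribosome joins a small subunit, which reads the mRNA, to a large subunit, which forms the peptide bonds. Ribosomal protein mRNAs are among the most abundant of growing cells, and many begin with a C followed by a run of pyrimidines, the 5′ terminal oligopyrimidine (TOP) motif, through which mTORC1 signalling controls their translation. T cells raise ribosome production when they are activated.

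The start sites of genes described here are shown because the TOP motif is the sequence feature for which the family is known. Each window runs from 15 bases before to 15 after the start annotated by RefSeq on GRCm38.p6, 5′ to 3′ on the gene's own strand. Capitals mark a C followed by at least 5 more C or T, beginning within 5 bases of the start. The windows were picked after the search, to show genes with and without a run, and their mix is not that of the family. The first 5 genes had lower and the next 3 higher point values in L-Pha high, and the last 2 are a gene and its paralog.
Rps27: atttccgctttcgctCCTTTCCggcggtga
Rps21: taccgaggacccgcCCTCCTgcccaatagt
Rpl12: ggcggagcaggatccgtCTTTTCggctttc
Rps19: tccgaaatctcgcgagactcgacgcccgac
Rpl13: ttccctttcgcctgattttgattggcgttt
Rpl28: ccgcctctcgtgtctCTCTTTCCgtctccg
Rps6: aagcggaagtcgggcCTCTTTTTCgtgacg
Rpl5: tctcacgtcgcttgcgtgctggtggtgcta
Rpl22: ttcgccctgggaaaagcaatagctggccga
Rpl22l1: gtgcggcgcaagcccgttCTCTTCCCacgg
The windows lie at chr3:90213634-90213663 (minus strand) for Rps27, chr2:180257364-180257393 (plus) for Rps21 and chr2:32961697-32961726 (plus) for Rpl12. Those of Rps19, Rpl13 and Rpl5, which hold no run beginning within 5 bases of the start, lie at chr7:24884577-24884606, chr8:123102335-123102364 and chr5:107900513-107900542 (all plus). The Rpl13 window does hold a run further upstream, which is not marked. Those of Rpl28 and Rps6 lie at chr7:4792950-4792979 (plus) and chr4:86857353-86857382 (minus), and those of Rpl22 and Rpl22l1 at chr4:152325711-152325740 (plus) and chr3:28805493-28805522 (plus).

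Such a run was found at the start of 25 of the 61 members that matched the RefSeq promoter table (41.0%), against 3352 of all 32851 promoters (10.2%). It was found in 14 of 39 large subunit and 11 of 22 small subunit promoters. The motif CCGGAAG, searched on both strands from 250 bases before to 50 after the start, was found in 23 of 61 members (37.7%) against 8.86% of all promoters. AAGATGGC, searched in the same way, was found in 5 members (8.20%) against 2.75% of all promoters. In these comparisons each member entered once. The full set of promoters was not limited to a single entry per gene or to protein-coding genes. A match describes the letters at an annotated start and not a site in use. Likewise, the lack of a run near that start does not show that a transcript lacks the TOP motif. The median log2 fold change, L-Pha high minus L-Pha low, was -0.23 over the 25 tested members with a start run and -0.21 over the 33 without. It was -0.20 over the 22 tested members with CCGGAAG and -0.25 over the 36 without.

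Library totals ran from 2610729 to 3521117 counts. The 14 T cell identity genes held 0.0380 to 0.0957% of a library's counts, and L-Pha low 3 held the least; 10 of the 13 tested had lower point values in L-Pha high, with a median log2 fold change of -0.24. The 8 melanoma genes held 0.890 to 1.72%, with 0.890 to 1.59% in L-Pha low and 1.15 to 1.72% in L-Pha high. This share is a sum, which genes of high count dominate. Of these 8 genes, 6 had lower and 2 higher point values in L-Pha high, with a median of -0.08. Dct, with 23733 to 42410 counts per library, had a log2 fold change of 0.25 (SE 0.247). Tyrp1, with 589 to 1254 counts, had -0.35 (SE 0.250). The 10 macrophage and monocyte genes held 0.0151 to 0.0259% in L-Pha low and 0.0200 to 0.0323% in L-Pha high. Of the 8 tested, 7 had higher point values in L-Pha high, with a median of 0.45, and C1qa (0.63, SE 0.296) did not overlap between the groups. The 7 genes of naive and stem-like T cells held 0.0103 to 0.0130% in L-Pha low but 0.00358 to 0.00534% in L-Pha high, and the only gene called in the fit, Tcf7, a transcription factor of these cells, was among them. All 4 red cell genes had lower point values in L-Pha high, with 0.168 to 0.304% of counts in the low group and 0.0763 to 0.226% in the high group. Of 11 genes that follow RNA quality, mostly mitochondrial transcripts, 9 had lower point values in L-Pha high, with a median of -0.33. Those with the smallest p, mt-Co3 (-0.61, SE 0.201), mt-Nd1 (-0.46, SE 0.230) and mt-Atp6 (-0.42, SE 0.212), did not overlap between the groups. None was called. Of all tested genes, 4.18% lay lower and 4.23% higher in L-Pha high without overlap. The mitochondrial genome as a whole held 3.12 to 4.40% of counts in L-Pha low and 2.42 to 3.95% in L-Pha high, which overlap. In every library the melanoma genes held more counts than the T cell identity genes. The count table does not assign reads to a cell type, so the members' values cannot be read as those of T cells alone. In such bulk libraries, fewer cells of a type and less RNA per cell cannot be told apart. A single gene, Gm42418, which overlaps a ribosomal RNA repeat, took 9.59 to 24.96% of counts.

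Ribosomal protein genes stood slightly lower in L-Pha high as a set, and no single member passed the test. They held 11.96, 11.27 and 11.12% of all counts in L-Pha low 1, 2 and 3. The shares of L-Pha high 1, 2 and 3 were 10.54, 11.002 and 10.53%. The groups did not overlap in this share. With Gm42418 left out of the totals the share was 13.98, 15.01 and 12.64% in the low group, against 12.22, 12.97 and 11.65% in the high group. The groups then overlapped, since L-Pha low 3 lay below L-Pha high 2. The part of the T cell identity, naive T cell, red cell, melanoma, macrophage, RNA quality and Gm42418 values in these shares was not tested.

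Of the 81 members, 78 passed the filter on low counts and were tested among 11183 genes. The other 3 are paralogs. Rpl10l had 0 counts in every library, which allows up to 3 counts in each. Rpl3l had 1 count, in L-Pha low 3. Rpl39l had 8, 1 and 0 counts in the low group, against 3, 0 and 6 in the high group. The tested members ranged from 39.8 CPM (counts scaled to a common library size after TMM normalization) for Rpl7l1 to 5718 CPM for Rplp1, with a median of 1233 CPM over the 6 libraries.

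By edgeR's quasi-likelihood test with Benjamini-Hochberg adjustment over all genes, 0 of 78 members were called higher (0% of all tested genes) and 0 lower (0.00894% of all genes, a single gene). DESeq2 and limma-voom also called 0 members. The smallest adjusted p of a member in edgeR was 0.803. At an unadjusted edgeR p under 0.05, 0 members were higher (1.82% of all genes) and 5 were lower (6.41% of members against 1.97% of all genes) and included Rps27, Rps19, Rplp1 and Rpl13. DESeq2 and limma-voom each had 4 members at that unadjusted level.

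The sign of the point values was uneven: 69 of 78 members (88.5%) had a negative log2 fold change, against 50.7% of all tested genes, and 59 (75.6%) did when libraries were scaled by their totals alone. The median was -0.24 over the members, a fold of 0.848, and -0.01 over all genes. The 388 genes other than tested members at or above the 5th percentile of the members' levels had a median of -0.03. Neither pseudogene rows nor ribosomal proteins outside the naming rule were removed from this set. It thus holds rows that share reads with members, such as Rps27rt, a retrocopy described below. Scaling by library totals moved the median of all genes to 0.10 and that of the members to -0.13. The members stood -0.23 from all genes under either scaling. A change of scaling shifts all genes nearly alike, so this equal distance is no separate support. The members' median became -0.16 when L-Pha low 2 was left out, and -0.31 when L-Pha low 3 was.

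**Figure D1:**
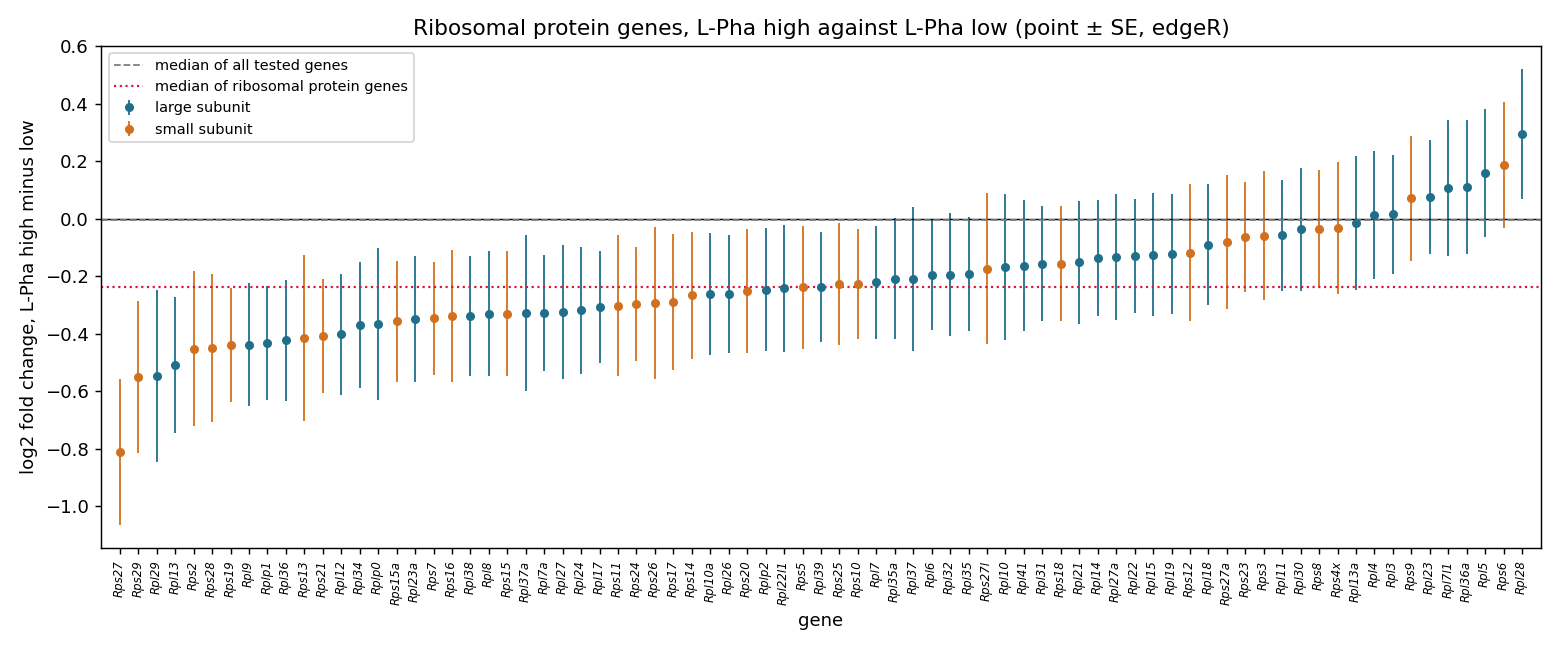
Log2 fold change (L-Pha high minus L-Pha low, y axis) of 77 of the tested genes in order of size (x axis), with the standard error from edgeR as bars; large subunit genes are blue and small subunit genes orange. Of these, 68 lie below 0, 43 of them by more than their own standard error, and 1 lies above 0 by more than its standard error.

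Both subunits had negative medians. Of the 48 large subunit genes tested, 41 had a negative log2 fold change, with a median of -0.21. Of the 30 small subunit genes, 28 did, with a median of -0.28. The medians differed by 0.07 on the log2 scale, a description with no test. Summed counts of the large subunit were 1.41, 1.39 and 1.34 times those of the small subunit in the low group, against 1.43, 1.40 and 1.36 times in the high group. These ratios, which genes of high count dominate, overlapped between the groups. With each gene weighted equally, the mean log2 deviation of the large minus the small subunit genes was -0.024, -0.056 and 0.0085 in L-Pha low 1, 2 and 3. It was 0.028, 0.028 and 0.016 in L-Pha high 1, 2 and 3, so every L-Pha high library lay above every L-Pha low library on this measure. The differences are small and were not tested.

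The libraries of a group did not agree in the members' mean level. On the log2(CPM + 0.5) scale, the mean deviation of the members from their own 6-library means was 0.15, 0.26 and -0.09 in L-Pha low 1, 2 and 3. It was -0.10, -0.02 and -0.21 in L-Pha high 1, 2 and 3. L-Pha low 3 thus lay within the range of the L-Pha high libraries, and L-Pha low 1 and 2 lay above all of them.

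**Figure D2:**
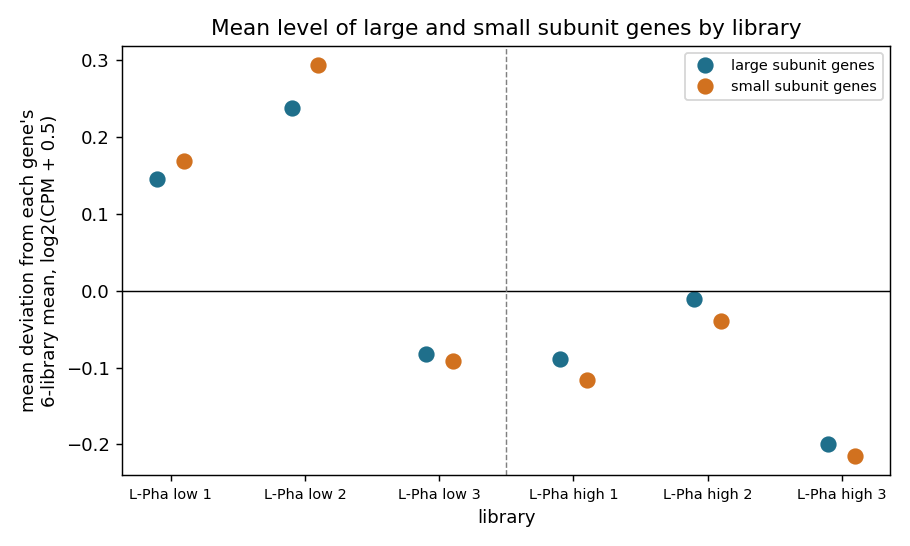
Mean deviation of the large (blue) and small (orange) subunit genes from each gene's 6-library mean, in log2(CPM + 0.5), for each library; a dashed line parts the groups. Both subunits stand together in every library, and L-Pha low 3 sits among the L-Pha high libraries.

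Among small subunit genes, Rps27, a zinc-binding protein of the 40S subunit (ENSMUSG00000090733, chr3:90212725-90213615, minus strand), had the smallest p of all members. Its level was 1267, 1142 and 680.1 CPM in the low group, against 717, 532 and 512 CPM in the high group. L-Pha low 3 lay below L-Pha high 1, so the groups overlapped. The log2 fold change was -0.81 (SE 0.255, edgeR adjusted p = 0.803).

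Rps27 shares reads with a retrocopy that the naming rule leaves out, Rps27rt, named here after its values were seen. Rps27rt had a log2 fold change of -0.82 (SE 0.248). Reads that align to both places were counted in both by the authors, so these are not separate measurements.

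Rps19, a 40S protein whose human counterpart is mutated in Diamond-Blackfan anaemia, stood at 1102, 1143 and 943 CPM in L-Pha low. It stood at 840.4, 777 and 733 CPM in L-Pha high, and the groups did not overlap. The log2 fold change was -0.44 (SE 0.198). Rps21, whose start is shown above, had 4189, 4147 and 3227 CPM in the low group, against 2999, 3020.3 and 2692 CPM in the high group. These groups did not overlap either, and the log2 fold change was -0.41 (SE 0.197). Rps29, another small zinc-binding protein, had a log2 fold change of -0.55 (SE 0.264), and its groups overlapped.

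Among large subunit genes, Rpl13 stood at 1305, 1793 and 1012 CPM in the low group, against 933, 1098 and 856 CPM in the high group. L-Pha high 2 lay above L-Pha low 3, and the log2 fold change was -0.51 (SE 0.236).

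Rpl12, which lies at the base of the stalk, stood at 1157, 1468 and 967 CPM in L-Pha low. It stood at 937, 880.1 and 900.1 CPM in L-Pha high. Every L-Pha high library lay below every L-Pha low library, and the log2 fold change was -0.40 (SE 0.212). In Rpl36, as in Rpl7a and Rps24 among the members without overlap, L-Pha low 3 was the highest library: it had 1175, 1359 and 1733 CPM in L-Pha low, and 1031, 1134 and 1014 CPM in L-Pha high. Its log2 fold change was -0.42 (SE 0.210).

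The stalk of the large subunit, formed by Rplp0 with the acidic proteins Rplp1 and Rplp2, recruits the factors that drive translation. Rplp1, the member with the highest level, had 6756, 7436 and 5512 CPM in the low group, against 4736, 5367 and 4503 CPM in the high group. The groups did not overlap, and the log2 fold change was -0.43 (SE 0.199). Rplp2 had 5115, 5030.5 and 3579.8 CPM in the low group, against 3608, 4539 and 3417 CPM in the high group, a log2 fold change of -0.25 (SE 0.214). Rplp0 had 1004, 1376 and 683 CPM in the low group, against 920.5, 848 and 607 CPM in the high group, a log2 fold change of -0.37 (SE 0.264). For Rplp0 and Rplp2, L-Pha low 3 lay within the L-Pha high range, and the groups overlapped.

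Other members with the highest levels of their subunit had values close to 0. Rpl13a had 3624, 4509.9 and 4342 CPM in the low group, against 2933, 5404 and 4001 CPM in the high group, a log2 fold change of -0.02 (SE 0.234) that was 0.08 with scaling by library totals. Rps9 had 4509, 5009 and 4622 CPM in the low group, against 3677, 6132 and 5043 CPM in the high group, a log2 fold change of 0.07 (SE 0.217). Rps23 had a log2 fold change of -0.06 (SE 0.191), which was 0.04 with scaling by library totals. In Rpl13a and Rps9, L-Pha high 1 was the lowest and L-Pha high 2 the highest of all libraries.

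In all, 13 members had every L-Pha high library below every L-Pha low library (16.7% of members against 4.18% of all genes), and 0 had the opposite (4.23% of all genes). They were 8 large subunit and 5 small subunit genes, the same share of each subunit. By rising p, the first 10 were Rps19, Rplp1, Rps21, Rpl9, Rpl36, Rpl12, Rps7, Rpl7a, Rpl17 and Rps24.

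Higher point values in L-Pha high were found for 9 members, and none passed the test. Rpl28 had 517, 574 and 374 CPM in the low group, against 534, 707 and 557 CPM in the high group, with a log2 fold change of 0.29 (SE 0.227). The groups overlapped. Rps6, the 40S protein phosphorylated downstream of mTORC1, had 1372, 1078 and 1403 CPM in the low group, against 1212, 1806 and 1363 CPM in the high group. Its log2 fold change was 0.19 (SE 0.219), and L-Pha high 2 alone stood above all other libraries.

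Rpl5, which binds 5S ribosomal RNA, had 1531, 1444 and 1870.2 CPM in the low group, against 1375, 2199 and 1829.6 CPM in the high group, a log2 fold change of 0.16 (SE 0.223). The other 6 were Rpl36a, Rpl7l1, Rpl23, Rps9, Rpl3 and Rpl4, with log2 fold changes from 0.01 to 0.11. Without L-Pha high 2, the values of Rps6, Rpl5, Rpl36a, Rps9, Rpl3 and Rpl4 were all below 0.

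Of the members, 4 lie on the X chromosome. Rps4x had 1702, 2114 and 2522 CPM in the low group, against 1611, 2557 and 2033 CPM in the high group, a log2 fold change of -0.03 (SE 0.230) that was 0.06 with scaling by library totals. Rpl39 had 1713, 1871 and 1822 CPM in the low group, against 1459, 1635 and 1490.5 CPM in the high group, a log2 fold change of -0.24 (SE 0.190). Its groups did not overlap. Rpl10 stood at -0.17 (SE 0.255) and Rpl36a at 0.11 (SE 0.234) on the log2 scale, both with overlapping groups.

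Rps27a is made as a fusion of ubiquitin with a 40S protein. It had 2616, 3189 and 3795 CPM in the low group, against 2166, 3440 and 3462 CPM in the high group, a log2 fold change of -0.08 (SE 0.233), which was 0.01 with scaling by library totals. The groups overlapped. Rpsa, Fau and Rack1 had log2 fold changes of -0.40, -0.21 and -0.22, and Rps3a1 and Rpl36al, added after their values were seen, 0.10 and -0.08.

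Some members have a paralog of similar name and sequence, and 3 pairs in which both genes are members had both tested. The ratio of paralog to gene within a library does not depend on scaling. Rps27l over Rps27 was 0.186, 0.210 and 0.218 in the low group, against 0.325, 0.265 and 0.349 in the high group. Every L-Pha high library had the higher ratio, in which the Rps27 count includes reads shared with Rps27rt. The log2 ratio differed by 0.61, and the levels of Rps27l itself overlapped, at 208 ± 51.7 CPM in L-Pha low and 184 ± 46.4 CPM in L-Pha high (SD, n = 3 each).

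Rpl7l1 over Rpl7 was 0.0464, 0.0355 and 0.0438 in the low group, against 0.0517, 0.0514 and 0.0534 in the high group, again without overlap, and the log2 ratio differed by 0.33. Rpl22l1 over Rpl22 was 0.341, 0.350 and 0.387 in the low group, against 0.374, 0.234 and 0.395 in the high group, with overlap and a difference of -0.14. A two-sided exact permutation test of the log2 ratio was added after the ratios had been seen. The exact p was p = 0.1 for Rps27l and Rpl7l1, the smallest that 3 libraries against 3 allow, and p = 0.9 for Rpl22l1. Adjusted over the 3 pairs, the exact permutation p was 0.15, 0.15 and 0.9. With 3 libraries against 3, no ratio could have passed the threshold of 0.05, so this test cannot decide whether the ratios differ.

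**Figure D3:**
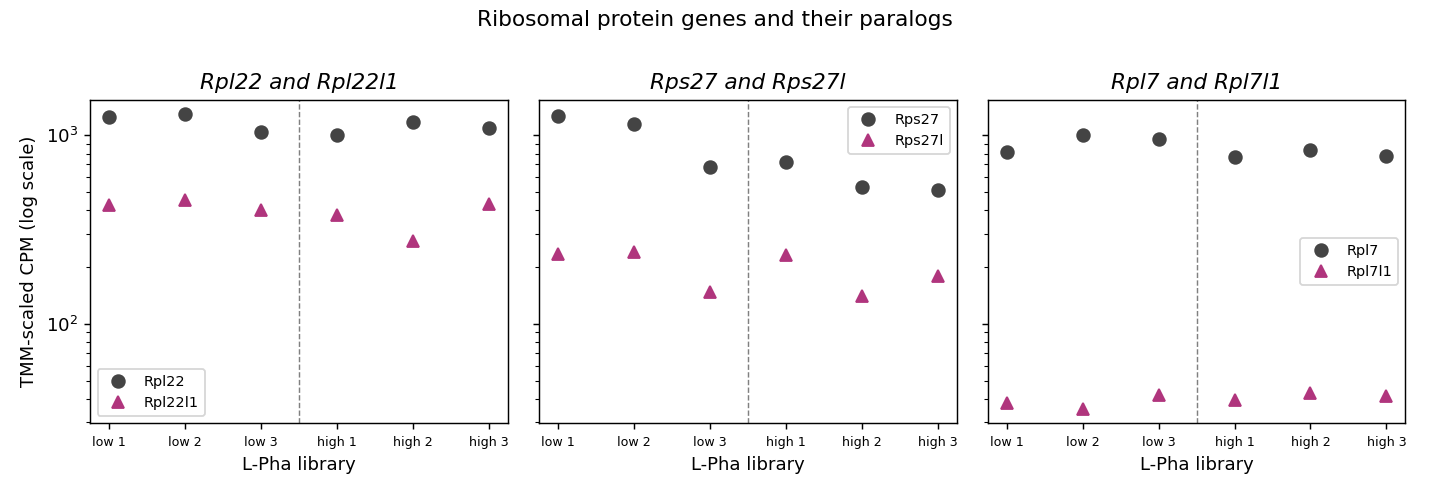
TMM-scaled CPM (log scale, y axis) of 3 ribosomal protein genes (grey circles) and their paralogs (purple triangles) in each library (x axis). Rps27 and Rps27l lie closer together in the L-Pha high libraries, with ratios of 0.265 to 0.349 against 0.186 to 0.218 in L-Pha low.

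The members also differed from each other in which libraries they were high, and this pattern did not follow the sort. After each gene's and each library's mean was removed, the leading axis of the 78 profiles held 66.6% of their variance. On it L-Pha low 1, low 2 and high 1 stood at 0.44, 0.44 and 0.34, and L-Pha low 3, high 2 and high 3 at -0.45, -0.39 and -0.39. Rps27, Rps13, Rps29 and Rps28 were relatively high in the first 3 libraries, and Rpl5, Rps27a, Rpl36a, Rpl4 and Rps4x in the other 3.

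A gene's place on this axis and its log2 fold change had a Spearman rho of -0.71 over the 78 genes. Both come from the same 6 libraries, and 2 of the 3 libraries at each end belong to the same group, so the measures are not independent.

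**Figure D4:**
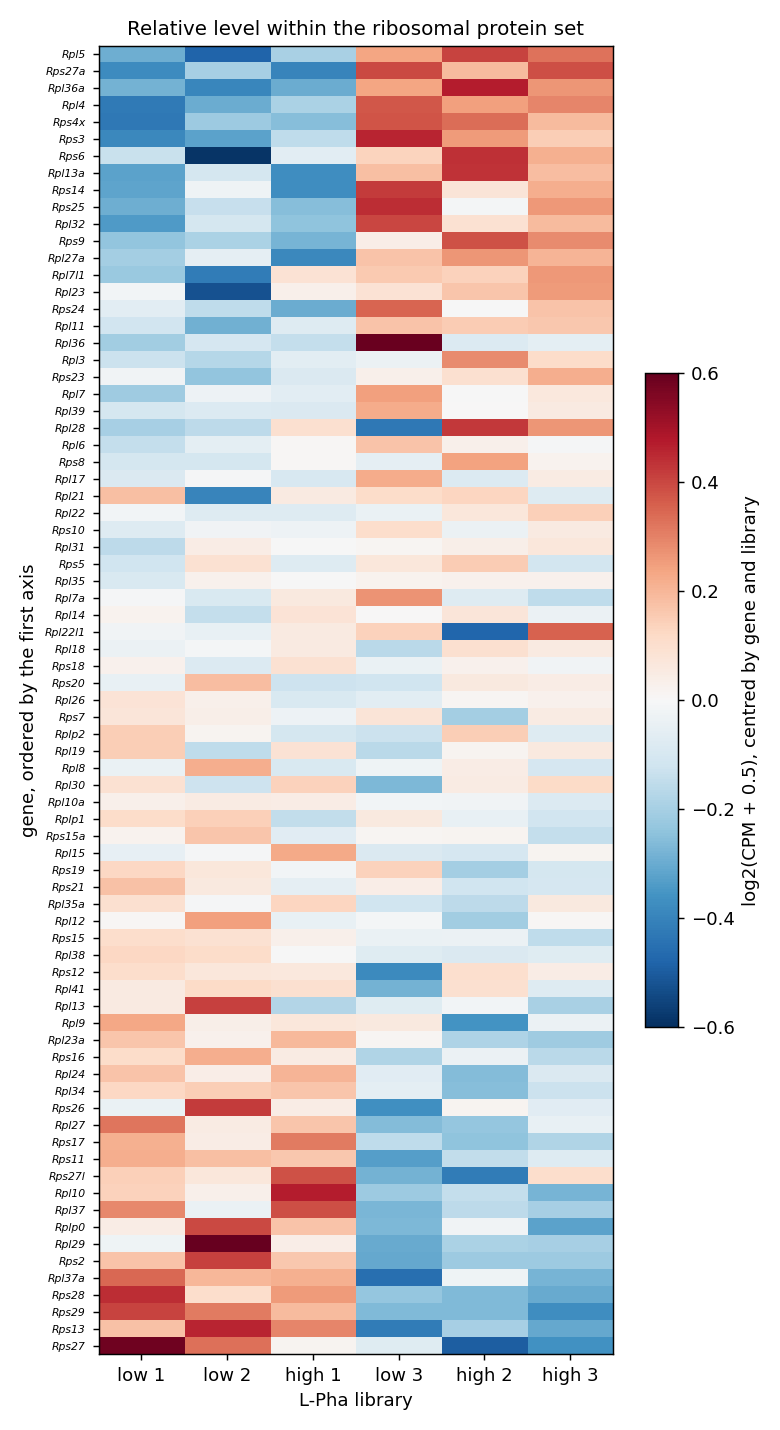
Level of 77 tested members (rows, ordered by the leading axis) in each library (columns), as log2(CPM + 0.5) centred by gene and by library; red is higher and blue lower. L-Pha low 1, low 2 and high 1 share one pattern, and L-Pha low 3, high 2 and high 3 the opposite one.

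Annotated mRNA length went with this pattern. Members have short mRNAs, with a median of 751 bases (345 to 3706), against 2924 bases for 9647 other protein-coding genes tested. Across the members, the rho of length with the level in a library relative to the gene's mean was -0.41, -0.31 and -0.22 in L-Pha low 1, low 2 and high 1. It was 0.24, 0.42 and 0.27 in L-Pha low 3, high 2 and high 3. Length and log2 fold change had a rho of 0.33 across members and 0.09 across the other genes. For GC content of the mRNA the rho with log2 fold change was -0.31 and -0.15. Genes share libraries and are not independent replicates, so these are descriptions, and the part of RNA quality or library preparation in them was not tested.

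**Figure D5:**
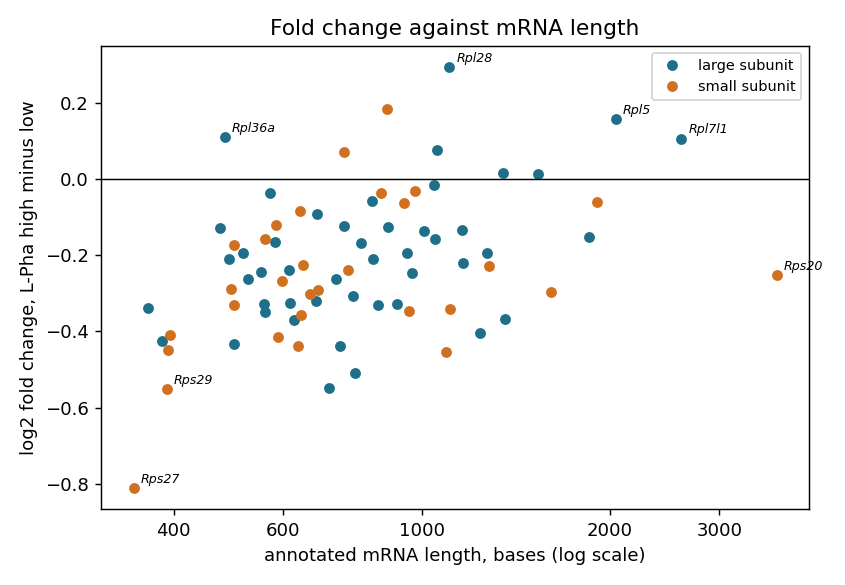
Log2 fold change (y axis) against annotated mRNA length in bases (log scale, x axis) for 77 tested members, large subunit in blue and small subunit in orange. Rps27, the shortest mRNA at 345 bases, has the lowest value. Of the 3 longest, Rpl5 and Rpl7l1 lie above 0 and Rps20, the longest at 3706 bases, lies at -0.25.

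Processed pseudogenes of ribosomal protein genes carry nearly the same sequence as their parents. The table holds 248 rows whose symbol follows the naming rule with -ps added, called pseudogene rows here. They held 6.39 to 7.34% of each library's counts, and 55 of the 81 members have at least 1. Processed pseudogenes under other names are not among these rows, nor in the alternatives that use them. For 20 members the pseudogene rows together held more counts than the gene; for Rps12, singled out after its values were seen, they held 28.3 times as many. Of these rows 153 were tested, with a median log2 fold change of -0.23. Multiply aligned reads were counted at every place they align, so these rows are not independent of the members. When each gene was summed with its pseudogene rows, an alternative added after the data were seen, 68 of 78 members had a negative value and the median was -0.24.

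Lists of other genes of ribosome production had medians nearer 0 or above it, and edgeR called 0 of their genes, with 1 higher and 1 lower at an unadjusted p under 0.05, both mitochondrial ribosomal protein genes. The 54 tested ribosome assembly factors had a median log2 fold change of 0.10, with 34 above and 20 below 0. Among them were Ncl (nucleolin) at 0.39 (SE 0.209), Nip7 at 0.47 (SE 0.263) and Ebna1bp2 at 0.36 (SE 0.225). The 17 other TOP mRNAs, which encode translation factors and related proteins, had a median of -0.03, with 7 above and 10 below 0.

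The 13 genes of the RNA polymerase I machinery, which transcribes ribosomal RNA, had a median of -0.06, with 4 above and 9 below 0. The 17 genes of MYC and mTORC1 control had a median of 0.01, with 9 above and 8 below 0; Myc stood at -0.86 (SE 0.445) and Rptor, an mTORC1 subunit, at -0.71 (SE 0.353). Mlst8, another mTORC1 subunit, stood at 0.53 (SE 0.335), with every L-Pha high library above every L-Pha low library. This held for 4.23% of all tested genes. Myc and Rptor overlapped between the groups. Counts were low, at 29 to 69 per library for Mlst8, 12 to 47 for Myc and 30 to 74 for Rptor. The 6 snoRNA host genes had a median of -0.02. The 78 mitochondrial ribosomal protein genes, a separate ribosome, had a median of -0.07, with 29 above and 49 below 0. The difference between any of these lists and the members was not tested.

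The precision of single genes limited the comparison. The standard error of a member's log2 fold change ran from 0.190 to 0.300, and the median coefficient of variation between libraries was 17.1% in L-Pha low and 12.5% in L-Pha high. The count of members at an unadjusted edgeR p under 0.05 was 5 with all libraries. It became 22 when L-Pha low 3 was left out, and 1 when either L-Pha low 2 or L-Pha high 3 was.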

How the data were processed

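Per the file headers, the authors ran featureCounts 1.5.0-p3 with Ensembl 78 gene models on GRCm38, and the deposited table gives whole-number counts for every gene. The options recorded there keep sense-strand reads and use multiply aligned or overlapping reads for every gene they touch. Ribosomal protein genes and near-identical copies therefore share reads, and single values are uncertain. The submitters' processing notes list HISAT2 2.1.0, cutadapt 1.7 and limma without a role, and name hg19, whereas the header names GRCm38. A deposited table of log2 values, whose making is not given in the sources used here, served 1 alternative.

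Symbols came from GENCODE on GRCm38 and matched 97.3% of identifiers. Counts were filtered with filterByExpr, TMM-normalized and fitted with edgeR 4.0.16 in R 4.3.3 (quasi-likelihood, robust, group only, two-sided), with Benjamini-Hochberg adjustment over 11183 genes and a threshold of 0.05. The code was tested on simulated data. The library axis and mean deviations used a pseudocount of 0.5. Promoter sequences are from RefSeq. The members and lists were chosen with earlier results of these data known. Genes named are up to 10 members per direction by p, the 3 of highest level per subunit, the stalk, X-linked, paralogous and ubiquitin fusion genes, up to 10 members without overlap, and up to 3 per other list. The test of paralog ratios was added after the ratios were seen. Alternatives were other scalings, filters and tools (DESeq2 1.42.0, limma 3.58.1), a replicate block, each library left out, and 3 added after seeing the data. Of the genes that the rule names, 2 are not reported here; they stay in the counts and medians, and the figures leave them out.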

Additional observations from a re-analysis of the deposited data

How the results depend on the processing

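No member was called under any alternative run. Over all genes, edgeR called 1; the count was 0 with library totals, limma-voom, the deposited log2 table or the libraries numbered 3 left out, 47 with no filter on low counts, 30 with DESeq2, and 0 to 8 when each library was left out. Members at an unadjusted p under 0.05 numbered 5; there were 1 with library totals or the log2 table, 10 without the libraries numbered 3, 3 without pseudogene rows, 2 summed with them, and 1 to 22 when each library was left out. Leaving out the libraries numbered 3 and both treatments of pseudogene rows were chosen after seeing the data. With the replicate block on the libraries' numbers, 43 genes were called and 16 members had an unadjusted p under 0.05. The smallest adjusted edgeR p of a member was then 0.0727. Same-numbered libraries deviated together with r of 0.37, 0.08 and 0.47 over all genes, and 0.73, -0.27 and 0.72 over the members. Low 1 correlated best with high 1 and low 3 with high 3, whereas low 2 also correlated best with high 1 (0.13 over all genes). Seen from the high libraries, each correlated best over all genes with the low library of its number, high 2 with low 2 at 0.08. Over the members, high 2 correlated best with low 3 (0.50). The labels do not state that the numbers are pairs, so the main fit used the group only. Whether they are pairs was not settled. The large minus small median was 0.12 without the libraries numbered 3 and 0.0071 to 0.11 when each library was left out. With library totals the log2 fold changes of Rpl13a, Rps23, Rps4x and Rps27a turned to 0.079, 0.039, 0.059 and 0.012; without the libraries numbered 3, Rpl13a and Rps4x turned to 0.038 and 0.13. Leaving out each library gave ranges through 0: Rps6 -0.0079 to 0.30, Rpl5 -0.024 to 0.32, Rpl36a -0.13 to 0.30, Rpl23 -0.033 to 0.17, Rps9 -0.13 to 0.25, Rpl3 -0.14 to 0.10, Rpl4 -0.11 to 0.18, Rpl13a -0.28 to 0.18, Rps23 -0.13 to 0.0095, Rpl10 -0.43 to 0.0085, Rps4x -0.23 to 0.12 and Rps27a -0.21 to 0.11. The cause was not tested.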
